A study of Mus musculus with 10 samples.

Results

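The cholesterol synthesis genes Hmgcs1, Idi1, Fdft1, Sqle, Lss and Cyp51, together with Ch25h, were taken by gene symbol from a table of 22329 genes, and all 7 were present. They were measured by RNA sequencing in 10 subcutaneous tumours of B16F10, a mouse melanoma cell line grown in C57BL/6 mice. Each tumour received 1 intratumoral injection of 80 µg mRNA and was collected 7 days later. In 5 control mRNA tumours (libraries 1 to 5) the mRNA encoded luciferase. The 5 cytokine mRNA tumours (libraries 6 to 10) received 20 µg of each of the mRNAs for a murine single-chain IL-12, IL-15sushi, GM-CSF and IFNalpha. All groups share the tumour line, the host strain and the injection, and neither group is an uninjected tumour. The label of a B16F10 tumour was checked against Pmel, a melanosome gene, which was at 257 to 2094 TPM in the control libraries and at 674, 1.22, 597, 2416 and 2393 TPM in libraries 6 to 10. Library 7 was therefore nearly without it. TPM is a share of each library corrected for transcript length, so levels can be compared between genes, and the depth is unknown.

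Cholesterol is built from acetyl-CoA through mevalonate, then squalene, then lanosterol, in a chain of enzymes of the cytosol and endoplasmic reticulum. SREBP2 (gene Srebf2), a transcription factor held in the endoplasmic reticulum while sterols are plentiful, turns these genes on together, and Insig1 is one of the proteins that hold it back. Ch25h hydroxylates cholesterol to an oxysterol that can block SREBP2 processing and activate LXR, the nuclear receptor that drives sterol export. Ch25h is known as an interferon-stimulated gene of macrophages and dendritic cells, and growing tumour cells are users of newly made sterol. The comparison addressed here is whether the synthesis genes and Ch25h had other levels in the cytokine mRNA tumours than in the controls.

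The bases before the transcription start of these genes are shown because SREBP2 and its partner NF-Y are known to act on synthesis genes through such stretches, beside a Ch25h window for contrast. Not every window holds the letters searched for. RefSeq windows on GRCm38.p6 were matched for 5 of the 7 genes. Each sequence runs 5′ to 3′ on the gene's strand and covers the 250 bases before the start. Capitals mark matches, on either strand, to TCACNCCA or the looser TCACNNCA (sterol regulatory element forms), CCAAT (the NF-Y box, ATTGG on the other strand) or GAAA, any pair of bases and GAAA again (an interferon response element form).
Hmgcs1, chr13:119690101-119690350, plus strand: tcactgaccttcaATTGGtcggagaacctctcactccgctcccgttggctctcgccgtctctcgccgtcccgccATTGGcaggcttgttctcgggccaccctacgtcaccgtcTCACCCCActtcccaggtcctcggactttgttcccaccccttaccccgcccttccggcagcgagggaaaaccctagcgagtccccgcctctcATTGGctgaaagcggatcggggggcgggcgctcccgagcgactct
Idi1, chr13:8885356-8885605, plus strand: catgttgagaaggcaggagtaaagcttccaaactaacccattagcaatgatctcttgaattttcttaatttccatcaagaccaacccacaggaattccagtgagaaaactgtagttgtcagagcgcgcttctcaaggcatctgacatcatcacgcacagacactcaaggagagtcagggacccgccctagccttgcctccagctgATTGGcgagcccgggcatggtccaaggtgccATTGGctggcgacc
Lss, chr10:76531355-76531604, plus strand: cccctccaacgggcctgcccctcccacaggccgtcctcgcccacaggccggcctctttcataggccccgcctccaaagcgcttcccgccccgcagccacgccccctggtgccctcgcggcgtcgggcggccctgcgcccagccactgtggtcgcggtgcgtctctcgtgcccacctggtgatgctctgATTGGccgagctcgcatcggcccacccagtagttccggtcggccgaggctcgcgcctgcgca
Cyp51, chr5:4104698-4104947, minus strand: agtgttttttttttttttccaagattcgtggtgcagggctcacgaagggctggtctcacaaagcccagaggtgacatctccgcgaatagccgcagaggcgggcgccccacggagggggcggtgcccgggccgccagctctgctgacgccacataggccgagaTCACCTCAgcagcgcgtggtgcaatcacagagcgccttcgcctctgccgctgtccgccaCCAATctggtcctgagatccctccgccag
Ch25h, chr19:34475149-34475398, minus strand: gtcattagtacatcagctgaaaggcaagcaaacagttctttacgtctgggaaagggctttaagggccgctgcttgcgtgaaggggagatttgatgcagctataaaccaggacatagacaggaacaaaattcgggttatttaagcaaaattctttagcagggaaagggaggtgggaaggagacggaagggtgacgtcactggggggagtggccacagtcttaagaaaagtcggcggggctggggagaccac

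All 4 synthesis gene windows held CCAAT, which 33.8% of 32851 RefSeq promoter windows of that length hold, and all 4 held the Sp1 box GGGCGG, which 32.7% hold. Hmgcs1 held CCAAT at 3 places and Idi1 at 2. TCACNCCA was found only in Hmgcs1 among the 4, as TCACCCCA with its first base 137 before the start, against 3.67% of all windows. TCACNNCA, chosen after these sequences had been read and including every TCACNCCA match, was also found in Cyp51, as TCACCTCA with its first base 88 before the start, against 11.4% of all windows. Among 15 windows of 12 other genes of the pathway, 11 held CCAAT, 1 held TCACNCCA and 6 held the looser TCACNNCA. The shares of all windows were 33.8%, 3.67% and 11.4%, as above. None of these letter strings, nor GGGCGG, was found in the Ch25h window, and the interferon response element form was in none of the 5 windows (2.98% of all windows). A match describes letters only.

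Ch25h rose in the cytokine mRNA tumours. It stood at 4.21, 2.84, 0.965, 6.75 and 2.50 TPM in control libraries 1 to 5. In cytokine mRNA libraries 6 to 10 it stood at 5.58, 70.9, 20.5, 18.8 and 12.1 TPM. Libraries 7, 8, 9 and 10 lay above every control, while library 6 lay within the control range. At least 4 of 5 values above all controls were found in 14.3% of genes tested. The control mean was 3.45 ± 2.18 TPM and the cytokine mRNA mean was 25.6 ± 26.0 TPM (SD, n = 5 each), 7.40 times as high. When library 7 was left out, the other 4 averaged 14.2 TPM. The log2 change of TPM + 1 was 2.25 ± 0.58 (SE), with a 95% interval of 0.99 to 3.52 and a limma adjusted p of 0.0331. Of all 12497 genes tested, 10.4% were called at an adjusted p under 0.05, and 7.41% were called higher. An exact 2-sided permutation test of Ch25h alone gave p = 0.0159, where 0.00794 is the smallest p that 5 against 5 tumours allow. The call was lost without control library 1, 2, 3 or 5, without cytokine library 8 or 9, and without libraries 6 and 7 together, where 0.152% of all genes were called higher (limma adjusted p of 0.0513 to 0.0745), while the log2 change stayed between 1.995 and 2.35 in these fits. In bulk tissue a change in the number of cells that express a gene and a change in RNA per cell cannot be told apart.

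The 6 synthesis genes all had lower means in the cytokine mRNA tumours, by 1.66 to 2.98 times, but none passed the limma threshold. By comparison, 3.02% of all genes tested were called lower. Their log2 changes ran from -2.16 to -0.81 with a median of -1.54, against a median of -0.18 over all genes tested. At an unadjusted limma p under 0.05, 6 of 6 were lower, against 16.1% of all genes. An exact rank test called 0 of the 6 and 0 of all genes. Its smallest possible 2-sided p, 0.00794, was reached by too few genes for any to pass after adjustment. That count therefore says nothing about the 6 in particular. A log2 change below 0 was itself common, in 60.3% of genes tested.

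**Figure D1:**
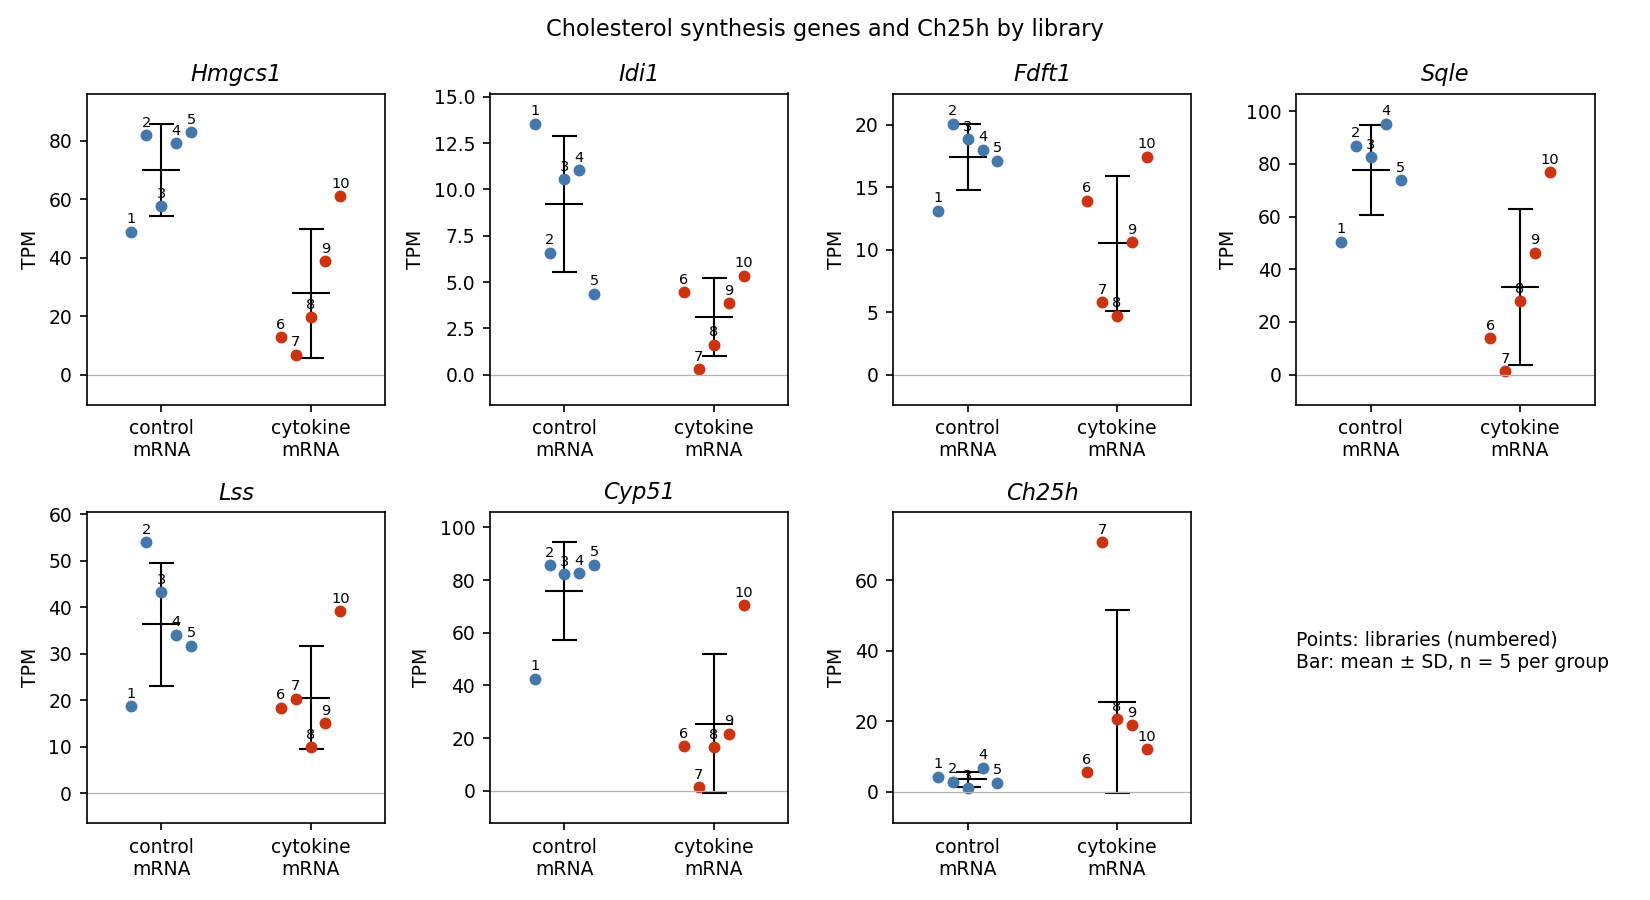
TPM of each of the 7 genes in each library, with libraries numbered and bars for the mean ± SD of 5 per group. Library 10 sits among the controls for all 6 synthesis genes, and library 7 is the lowest for Hmgcs1, Idi1, Sqle and Cyp51 and the highest for Ch25h, at 70.9 TPM.

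Hmgcs1, the synthase that makes HMG-CoA at the head of the mevalonate route, was at 48.9, 81.9, 57.6, 79.2 and 82.8 TPM in control libraries 1 to 5. In libraries 6 to 10 it was at 12.8, 6.75, 19.7, 38.7 and 61.1 TPM. Libraries 6 to 9 lay below every control and library 10 lay within the control range. The means were 70.1 ± 15.7 and 27.8 ± 22.1 TPM (SD, n = 5), and on the log2 scale the change was -1.64 ± 0.49 (SE; limma adjusted p = 0.0539). This was the smallest adjusted p among the 6.

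Idi1, the isomerase that interconverts the isoprene building blocks, was low throughout. Control libraries 1 to 5 gave 13.6, 6.58, 10.5, 11.04 and 4.37 TPM, and libraries 6 to 10 gave 4.47, 0.286, 1.62, 3.85 and 5.35 TPM. Libraries 7, 8 and 9 lay below every control, and libraries 6 and 10 overlapped control library 5. The log2 change was -1.44 ± 0.47 (SE; limma adjusted p = 0.0699). Its paralog Idi2 was listed at 0 in all 10 libraries.

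Fdft1, the squalene synthase that commits the route to sterols, was at 13.1, 20.1, 18.9, 18.01 and 17.1 TPM in control libraries 1 to 5 and at 13.9, 5.82, 4.71, 10.6 and 17.5 TPM in libraries 6 to 10. Libraries 6 and 10 lay within the control range and the other 3 below it. Its log2 change was -0.81 ± 0.34 (SE), the nearest to 0 of the 6, with a limma adjusted p of 0.132. Fdft1 overlaps the cathepsin gene Ctsb by 774 bases on the other strand in the GENCODE annotation, and Ctsb was at 339.9 ± 20.1 TPM in controls and 1196 ± 383 TPM after cytokine mRNA. Whether the counting used strand is not given in the sources used here.

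Sqle, the squalene epoxidase and a controlled step of the route, was at 50.5, 86.9, 82.4, 95.3 and 73.8 TPM in control libraries 1 to 5. In libraries 6 to 10 it was at 13.8, 1.24, 27.8, 46.3 and 76.9 TPM. Libraries 6 to 9 lay below every control, with library 7 far below the rest of its group. The log2 change was -1.92 ± 0.77 (SE; limma adjusted p = 0.122), the widest error of the 6. Without library 7 the log2 change was -1.12 ± 0.42 (SE; limma adjusted p = 0.124), and the cytokine mRNA mean was 41.2 TPM in place of 33.2 TPM.

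Lss, the cyclase that folds the squalene epoxide into lanosterol, was at 18.6, 54.0, 43.2, 34.1 and 31.7 TPM in control libraries 1 to 5 and at 18.4, 20.3, 9.87, 14.99 and 39.2 TPM in libraries 6 to 10. Libraries 6, 8 and 9 lay below every control, and libraries 7 and 10 lay within the control range. The log2 change was -0.85 ± 0.37 (SE; limma adjusted p = 0.146). Library 7 had the second highest Lss of its group and the lowest Sqle and Cyp51, and Lss was there the most abundant of the 6.

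Cyp51, the demethylase that takes lanosterol into the late steps, was at 42.5, 85.7, 82.2, 82.5 and 85.8 TPM in control libraries 1 to 5. In libraries 6 to 10 it was at 17.1, 1.46, 16.5, 21.7 and 70.5 TPM. Control library 1 stood apart from the other 4 controls, and libraries 6 to 9 lay below all of them. The means were 75.8 ± 18.6 and 25.4 ± 26.3 TPM (SD, n = 5), and the log2 change of -2.16 ± 0.69 (SE) was the farthest from 0 of the 6 (limma adjusted p = 0.0673). Without library 7 it was -1.47 ± 0.41 (SE; limma adjusted p = 0.0565).

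In exact 2-sided permutation tests of single genes, not adjusted for the number of genes, p was 0.0159 for Cyp51, 0.0238 for Hmgcs1, Idi1 and Sqle, 0.0476 for Fdft1 and 0.0794 for Lss. At least 4 of the 5 cytokine mRNA libraries lay below every control for Hmgcs1, Sqle and Cyp51, which held for 15.9% of all genes tested. The groups overlapped in each of the 6, where 3.78% of all genes tested had all cytokine mRNA values below all controls. In each of the 6 the overlapping cytokine mRNA libraries included library 10.

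By level per length, the order in control tumours was Sqle, Cyp51, Hmgcs1, Lss, Fdft1, Idi1 and Ch25h, with means of 77.8, 75.8, 70.1, 36.3, 17.4, 9.22 and 3.45 TPM. Every pair of neighbours in that order overlapped in range. In the cytokine mRNA tumours the means ran from Sqle at 33.2 through Hmgcs1 at 27.8, Ch25h at 25.6, Cyp51 at 25.4, Lss at 20.5 and Fdft1 at 10.5 to Idi1 at 3.11 TPM. Ch25h was below all 6 synthesis genes in every control library. It was above 6 of them in library 7, 5 in library 8, 3 in library 9 and 1 each in libraries 6 and 10. This within-library order does not depend on how libraries are scaled.

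Ch25h and the synthesis genes did not follow each other tumour by tumour in every case. Library 6 had Ch25h within the control range, at 5.58 TPM, yet its mean log2(TPM + 1) over the 6 synthesis genes, 3.75, lay below the control range of 4.79 to 5.40. Library 10 had Ch25h above every control, at 12.1 TPM, while its synthesis mean of 5.10 lay within that range. Library 7 was at the extreme of both, with a synthesis mean of 2.16. The summed TPM of the 6 genes was 187 to 335 in control libraries and 80.4, 35.9, 80.3, 136 and 270.5 in libraries 6 to 10. Among pairs of the 6 genes, Pearson r of log2(TPM + 1) over the 10 libraries ran from 0.48 to 0.97 with a median of 0.80. Between Ch25h and each of the 6 it ran from -0.84 to -0.58 with a median of -0.77. Both are descriptions over libraries that share the 2 groups and their scaling.

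**Figure D2:**
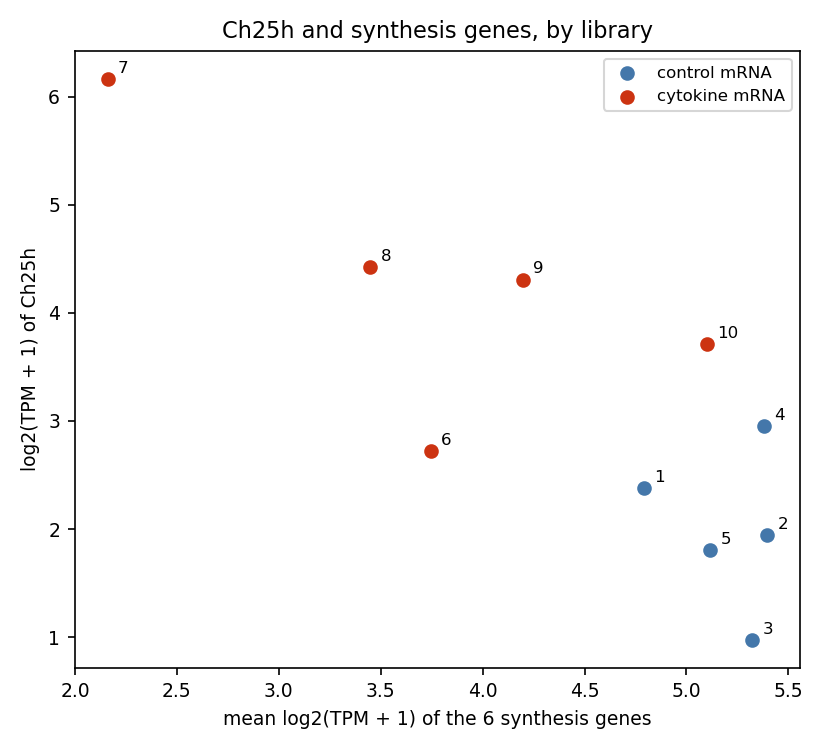
Each point is 1 library, placed by the mean log2(TPM + 1) of the 6 synthesis genes (horizontal) and the log2(TPM + 1) of Ch25h (vertical). Controls lie at the lower right, library 7 at the upper left, library 10 at a synthesis mean of 5.10 beside the controls, and library 6 has a low synthesis mean without a raised Ch25h.

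The rest of the route was described from a list of 15 other enzymes, of which 14 were in the table and tested. Of these, 2 fell, Mvk and Nsdhl, none rose, and 13 of 14 had a log2 change below 0, with a median of -1.22. Over all genes tested, 3.02% were called lower and 60.3% had a log2 change below 0. Mvk, mevalonate kinase, fell from 29.7 ± 5.59 to 15.3 ± 6.73 TPM (SD, n = 5; limma adjusted p = 0.0461). Nsdhl, a sterol dehydrogenase of the late steps, fell from 76.2 ± 12.7 to 35.4 ± 21.6 TPM (limma adjusted p = 0.0477). With 1 library left out in turn, Mvk passed in 2 of the 10 fits, those without control library 1 or library 10, and Nsdhl in 1, that without library 10. Tm7sf2, a sterol reductase named after its values were seen, was the exception, with 62.7 TPM in library 7 against 8.55 to 17.0 in libraries 6, 8, 9 and 10.

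**Figure D3:**
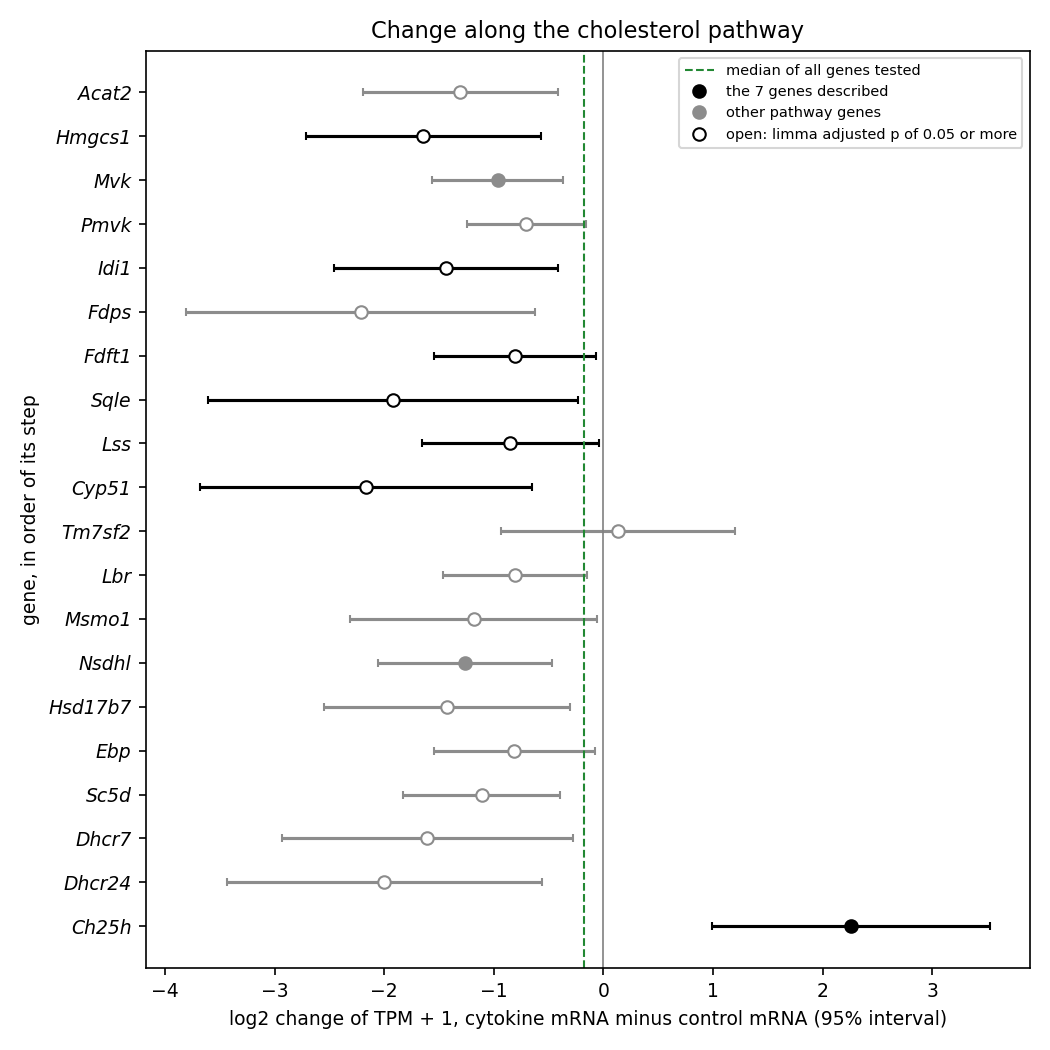
Log2 change of TPM + 1 (cytokine mRNA minus control mRNA) with its 95% interval for 19 synthesis enzymes in order of their step, and Ch25h. Filled points passed the limma threshold: Ch25h above 0, and Mvk and Nsdhl below 0. Of the 19 enzymes, 18 lie left of 0, as do 60.3% of all genes tested.

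The branch from the same precursors to other isoprenoids was described by 5 genes. None of them passed, and their median log2 change was -0.18, as over all genes tested. Nus1, a subunit of the dolichol-making enzyme, was at 37.9 ± 6.19 and 39.9 ± 8.39 TPM, and Ggps1, which makes geranylgeranyl diphosphate, at 41.1 ± 5.17 and 23.9 ± 8.66 TPM (limma adjusted p = 0.850 and 0.0645). All 5 cytokine mRNA values of Ggps1 lay below every control, which held for 3.78% of all genes tested.

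Among 7 genes of SREBP control, 1 fell and none rose, where 3.02% of all genes tested were called lower. Their median log2 change was -1.27. Mbtps1, the protease that makes the first cut in SREBP, fell from 66.0 ± 15.1 to 27.8 ± 10.7 TPM (limma adjusted p = 0.0201), and its call was lost without library 6. Without library 10, 4 of the 7 passed as lower, where 12.8% of all genes tested did. Srebf2 read 91.0, 104, 104, 112 and 112 TPM in control libraries and 20.3, 14.1, 54.5, 59.8 and 92.6 TPM in libraries 6 to 10, with a limma adjusted p of 0.0651. Libraries 6 to 9 lay below all controls, and library 10 within them. Insig1, itself a target of SREBP2, was at 78.8 ± 25.2 and 27.6 ± 27.1 TPM (limma adjusted p = 0.0657).

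Genes of sterol uptake and handling went both ways. Of 6 tested, 2 fell and 2 rose, against 3.02% and 7.41% of all genes tested. Stard4, a sterol carrier, fell from 26.5 ± 4.64 to 8.31 ± 7.63 TPM (limma adjusted p = 0.0230). Lipa, the lysosomal acid lipase that frees cholesterol from its esters, rose from 68.0 ± 26.4 to 158.6 ± 56.7 TPM (limma adjusted p = 0.0429). Npc2, a lysosomal sterol carrier, also rose, by 1.04 ± 0.22 (SE) on the log2 scale (limma adjusted p = 0.0174). Npc2 passed with any 1 library left out, Stard4 in 5 of the 10 such fits and Lipa in 2. Without library 7, 1 of the 6 genes fell and 1 rose, where 207 of 12497 genes tested were called lower and 653 higher. Soat1, which esterifies cholesterol, was at 208.8 ± 34.7 and 303 ± 103 TPM (limma adjusted p = 0.175), and Soat2 was below the filter, at 0.725 ± 0.596 and 1.62 ± 1.33 TPM.

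LXR and its export targets rose in 4 of 7 genes, and none fell, where 7.41% of all genes tested were called higher. Nr1h3, the gene of LXR alpha, was at 3.67, 1.44, 4.31, 3.61 and 3.85 TPM in control libraries and at 51.6, 68.9, 54.2, 21.2 and 8.55 TPM in libraries 6 to 10. All 5 lay above every control, which was the case in 5.45% of genes tested, and the limma adjusted p was 0.0120. Abca1, a sterol exporter, rose from 9.24 ± 3.33 to 52.6 ± 27.2 TPM and its partner Abcg1 from 5.68 ± 2.32 to 49.4 ± 27.0 TPM (SD, n = 5; limma adjusted p of 0.0162 and 0.0161). The lowest cytokine mRNA value of both was in library 10, at 14.1 and 8.54 TPM. Mylip, a ubiquitin ligase, also rose, by 0.86 ± 0.21 (SE) on the log2 scale (limma adjusted p = 0.0290). With 1 library left out, Nr1h3 and Abcg1 passed in all 10 fits, Abca1 in all but that without library 6, and Mylip in 3.

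Of 5 other oxysterol and bile acid genes tested, 1 rose and none fell, where 7.41% of all genes tested were called higher. Cyp27a1, a mitochondrial sterol hydroxylase, rose from 1.07 ± 0.624 to 9.02 ± 6.15 TPM (limma adjusted p = 0.0219), a call lost without control library 5 or library 8. Cyp7b1, which hydroxylates the product of Ch25h, was at 1.14 ± 1.66 and 1.499 ± 1.07 TPM (limma adjusted p = 0.605). Gpr183, the receptor for the dihydroxylated oxysterol made from that product, did not pass the filter on low values, so it was not tested. It was at 0.450 to 0.986 TPM in controls and at 14.1, 28.6, 10.6, 3.91 and 0.494 TPM in libraries 6 to 10, so library 10 lay within the control range.

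Of 10 fatty acid targets of SREBP1 tested, 4 fell and none rose, where 3.02% of all genes tested were called lower. Their median log2 change was -1.37. Scd2, a stearoyl-CoA desaturase, fell from 694 ± 167 to 231 ± 200 TPM (limma adjusted p = 0.0375), and its paralog Scd1 fell from 132.9 ± 43.7 to 44.4 ± 31.4 TPM (limma adjusted p = 0.0472). The others that fell were Elovl6, an elongase, by 1.55 ± 0.41 (SE) on the log2 scale (limma adjusted p = 0.0360), and Fads1, a desaturase. With 1 library left out, Fads1 passed in all 10 fits, Scd2 in 3, Scd1 in 2 and Elovl6 in 1. All 4 passed without library 10, where 7 of the 10 genes and 12.8% of all genes tested were called lower. The paralogs Scd1 and Scd2 could share reads.

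Other measures also differed between the groups, and their part in the results was not tested. The mean log2(TPM + 1) of 20 proliferation genes was 6.37 to 6.72 in controls and 4.67, 4.11, 4.97, 4.71 and 6.46 in libraries 6 to 10, so library 10 lay in the control range here as well. Of the 20, 15 fell and none rose, where 3.02% of all genes tested were called lower. With 1 library left out, 3 to 20 fell, with 7 of them without library 7 and 20 without library 10. The fit without library 10 called 12.8% of all genes tested lower, and that without library 7 called 207 of 12497 lower. The mean of 14 reference genes was 8.15 to 8.28 in controls and 7.05 to 7.95 in libraries 6 to 9, with library 10 at 8.29. Of these 14, 12 had a log2 change below 0. Their changes ran from -1.62 to 2.01 with a median of -0.48, so the list was not a fixed standard. The mitochondrial share of the TPM was 23.2% ± 4.57 in controls and 11.3% ± 5.54 after cytokine mRNA (SD, n = 5). After each library was centred on its reference genes the log2 changes of the 6 synthesis genes remained below 0, from -1.71 in Cyp51 to -0.36 in Fdft1, and Hmgcs1 was then past the threshold (-1.19, limma adjusted p = 0.0489). The median of all genes was 0.27 under that centring.

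Macrophage and monocyte markers were also higher in the cytokine mRNA tumours. Of 15, 12 rose and none fell, where 7.41% of all genes tested were called higher. Their summed TPM was 161 to 749 in controls and 963 to 17212 in cytokine mRNA tumours. Adgre1, a macrophage surface receptor gene, was at 1.92 to 23.3 TPM in controls and at 116, 147, 91.5, 59.8 and 19.2 TPM in libraries 6 to 10, and Cd68, of the macrophage lysosome, at 84.3 to 157 and 261 to 1741 TPM. The mean log2(TPM + 1) of the 15 markers in library 6, where Ch25h lay in the control range, was 7.68, against 8.71, 7.45, 7.08 and 5.18 in libraries 7 to 10. For the dendritic cell list it was 2.36 in library 6, against 3.40, 2.64, 2.83 and 1.63 in libraries 7 to 10. Of 7 dendritic cell markers tested, 3 rose and none fell, with a summed TPM of 4.78 to 22.1 in controls and 22.2 to 111 in cytokine mRNA tumours. Of 18 interferon-stimulated genes, 17 rose and none fell, against the same 7.41%. T cell and neutrophil markers also rose, with counts given below. With 1 library left out, 4 to 15 macrophage and monocyte, 1 to 5 dendritic cell and 13 to 18 interferon-stimulated genes rose, with 8, 1 and 17 without library 7 and 15, 5 and 18 without library 10. Of all 12497 genes tested, 653 were called higher without library 7. The share called higher was 13.2% without library 10 and 0.152% without libraries 6 and 7 together. In the latter fit, 1 interferon-stimulated gene and none of the others rose. Isg15, a ubiquitin-like modifier, was at 12.9 to 60.6 TPM in controls and at 279.7, 464, 232, 217 and 99.99 TPM in libraries 6 to 10. None of 11 melanocyte markers passed, and their mean log2(TPM + 1) ran from 8.33 to 10.2 except for 2.52 in library 7 and 7.22 in control library 1. The part of these cell populations in the Ch25h and synthesis results was not tested.

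**Figure D4:**
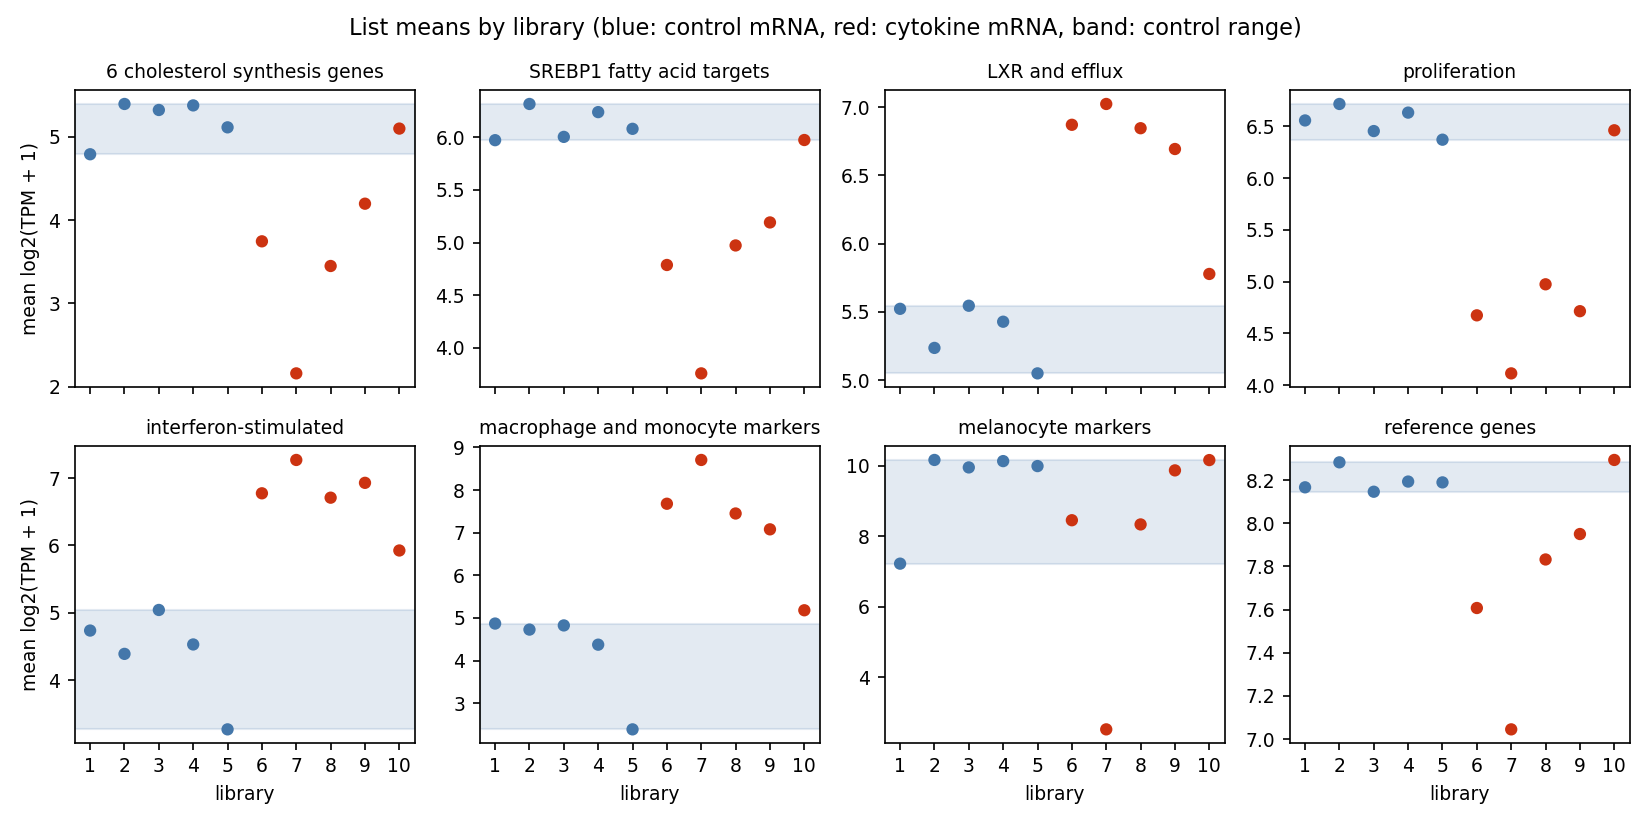
Mean log2(TPM + 1) of 8 gene lists in each library, with a band for the control range. In library 10 the cholesterol, fatty acid, proliferation and melanocyte lists lie in or at the edge of the control band, at 5.10 for the 6 cholesterol genes and 6.46 for proliferation, and the interferon list lies above it.

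With 1 library left out in turn, the synthesis genes were called lower only in the fit without library 10. Across the genes tested, which are not independent replicates, the profile of library 10 had a mean Pearson r of 0.930 to the 5 controls. To the other cytokine mRNA libraries it was 0.811. Without it, 6 of 6 synthesis genes passed the limma threshold as lower, with adjusted p from 0.00672 in Hmgcs1 to 0.0390 in Fdft1, where 12.8% of all genes were called lower. Of the 14 other enzymes, 11 passed. The cytokine mRNA means were then 19.5 TPM for Hmgcs1, 22.3 TPM for Sqle and 14.2 TPM for Cyp51. With weights for library quality, 6 of 6 passed too, where 9.41% of all genes were called lower. That fit kept library 10 at a weight of 0.552, beside 0.535 for library 6 and 0.187 for library 7, the lowest. Leaving out any 1 library other than library 10 gave 0 of 6. Those fits called few genes lower at all, from 46 of 12497 without library 6 to 207 without library 7. Without libraries 6 and 7 together, 0 of 6 passed and 0.008% of all genes were called lower. All 6 log2 changes were then below 0. Those of Sqle, Hmgcs1 and Cyp51 were -0.70, -0.91 and -1.28, against -1.92, -1.64 and -2.16 with all libraries. Idi1 and Fdft1 were at -1.16 and -0.77, against -1.44 and -0.81. Lss alone lay farther from 0, at -0.89 against -0.85. Of the genes of the other sterol and fatty acid lists named above, none passed in that fit.

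**Figure D5:**
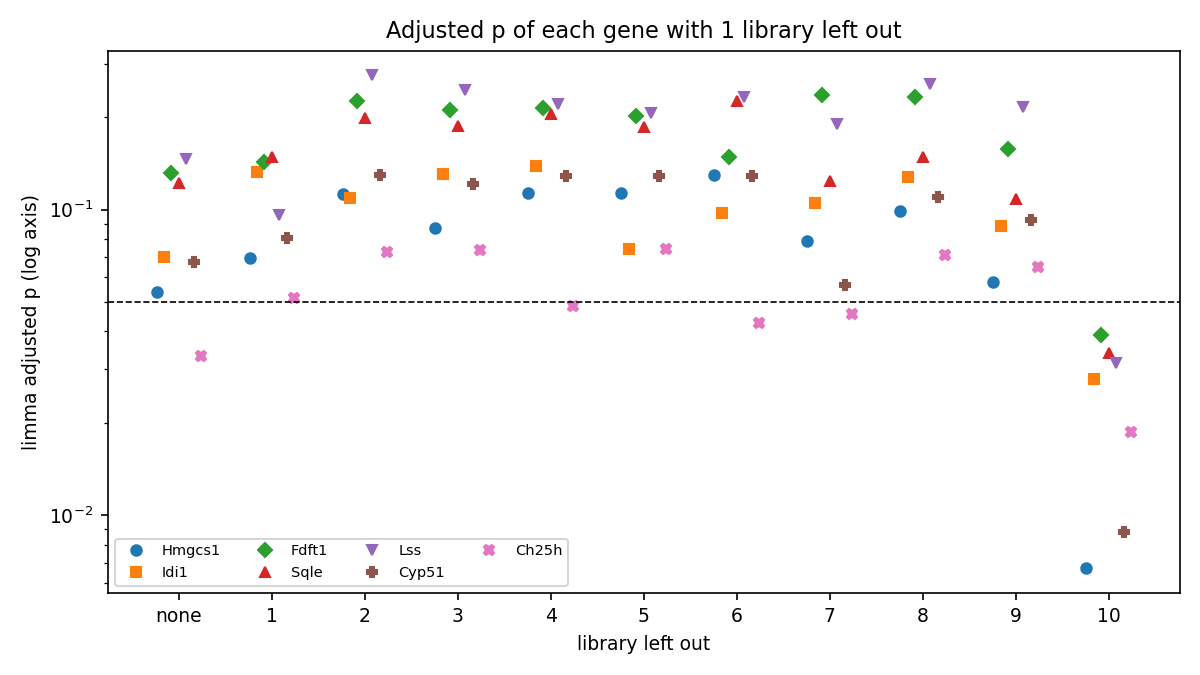
Limma adjusted p (log axis) of each of the 7 genes with all libraries and with each library left out in turn, with a dashed line at the threshold of 0.05. All 7 lie under the line without library 10; with the other libraries left out, the synthesis genes lie above it and Ch25h lies on either side.

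By the likeness of log2(TPM + 1) over the 10 libraries, the 5 genes nearest to Ch25h were Mppe1, Rab21, Taz, Man2b1 and Gch1, with Pearson r of 0.929 to 0.917. The 5 nearest to the mean of the 6 synthesis genes were Scrib, Nsdhl, Topors, Rpn1 and Dbf4, with r of 0.993 to 0.985. These are the highest of 12497 values over libraries that share their groups and scaling, and are given as a description.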

How the data were processed

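PolyA RNA of 10 tumours was extracted with a DNase step and made into stranded NuGEN libraries, per the labels' protocols. The authors deposited 1 table of TPM with a column per library, each summing to 1000000. STAR is the aligner and GRCh38 the genome build per the submitters' processing notes, a human build although the symbols are mouse. The build is therefore unsettled, and coordinates are only those of RefSeq's GRCm38.p6 promoter table. How reads were counted, and to which depth and annotation, is not given in the sources used here, so no counting interval can be given.

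Groups came from the titles. The labels give no batch or pairing, and the design states 5 mice per group. The 12497 genes that reached a TPM of 1 in 5 or more libraries were compared as log2(TPM + 1) with limma 3.58.1 in R 4.3.3 (trend, 2-sided, Benjamini-Hochberg over all genes tested, threshold 0.05). Fold changes on this scale understate low genes. The fit was tested on simulated data. Exact permutation tests used the difference of group means of log2(TPM + 1). Under the rule for names, all 7 genes are given, with fixed regulators, up to 3 called genes per sterol list by largest change (or the 2 with the highest mean TPM), and the 5 genes nearest by Pearson r. Idi2, Ctsb, Npc2, Mylip, Fads1 and Tm7sf2 were named outside it, after their values were seen. The members and lists were chosen with earlier results of these data known, so list counts are descriptions and no list was tested. Some genes counted in these lists are not reported here by name. Mvd, of the sterol list, and Acta1, of a muscle list, are not analysed here. In total, 24 alternatives were run: pseudocounts, filters, scalings, variance models, an exact rank test, a stricter threshold, and libraries left out. Marker lists not described in the text gave these counts. Of 8 T cell genes tested 7 rose, of 3 neutrophil genes 2 rose, and of 1 keratinocyte or sebaceous gene tested 1 rose, and none of these fell. Of all genes tested, 7.41% were called higher. These lists held 10, 7 and 10 genes, and those not tested were below the filter. A gene could pass that filter through the cytokine mRNA libraries alone. Of 7 endothelial, 7 fibroblast, 5 skeletal muscle, 3 adipocyte and 1 B cell genes tested, none passed.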

Additional observations from a re-analysis of the deposited data

Results flagged for a closer look

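In 30 groups of 5 values examined, 4 had a library far from the other 4 of its group, judged by its gap to the nearest value as a share of the group's range (Dixon's test at 95%). Chance gives about 1 in 20. Cyp51 was at 42.5 TPM in control library 1, against 82.2 TPM in the next control. The melanocyte marker mean was 7.22 in control library 1, against 9.95 in the next control, and 2.52 in cytokine mRNA library 7, against 8.33 in the next of its group. The macrophage and monocyte marker mean was 2.39 in control library 5, against 4.37 in the next control.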

How the results depend on the processing

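The 7 genes kept the sign of their change in all 24 alternatives. The Ch25h change ranged from 1.56 (pseudocount 5) to 2.70 (centred on the reference genes), and from 1.78 to 2.64 with 1 library left out. Its call was lost with no filter on low values (2.25, limma adjusted p = 0.0584) and at a threshold of 0.01 (2.25, limma adjusted p = 0.0331). It was also lost without libraries 6 and 7 (2.14, limma adjusted p = 0.0673). The exact rank test, which called 0 of all genes, gave Ch25h an adjusted p of 0.1004 (2.25). Over its alternatives the adjusted p ranged from 0.00655 to 0.1004. The count of synthesis genes called lower, 0, became 2 with a pseudocount of 5 or quantile normalization, 1 after rescaling without either the 50 most abundant genes or the mitochondrial and receptor segment genes, or with reference centring, and 6 with quality weights. With 1 library left out it ran from 0 to 6. The count of the 14 other enzymes called lower, 2, became 0 with a pseudocount of 0.1, no filter, reference centring, the rank test, a threshold of 0.01 or without libraries 6 and 7. It became 1 with median-ratio scaling or no variance trend, 5 without mitochondrial and segment genes and 11 with quality weights, and ran from 0 to 11 with 1 library left out. In the settings not yet given, all genes called lower were 282 with a pseudocount of 0.1 and 170 of 17505 with no filter. They were 366 with median-ratio scaling and 364 with no variance trend. The rank test and the threshold of 0.01 each left 0, and the fit without libraries 6 and 7 left 1. All genes called, 1304, became 846 with no filter, 2769 with quality weights, 0 by the rank test (2914 at an unadjusted p under 0.05), 61 at a threshold of 0.01 and 20 without libraries 6 and 7, and ran from 367 to 3238 with 1 library left out. The share of called genes that were higher was 71.0%, and 60.0% without the 50 most abundant genes, 55.3% without mitochondrial and segment genes, 86.5% with reference centring and 57.5% with quality weights. The median of all genes was -0.03 after median-ratio scaling. The cause of these shifts was not tested. The reference list holds B2m, an interferon-responsive gene that was called higher, and 12 of its 14 genes had a log2 change below 0. No paired analysis was possible because the groups share no replicate numbers. The depth of the libraries is unknown, so the precision of low values such as Idi1 in library 7 cannot be given.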
